A study of Mus musculus with 8 samples.

Results

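The globins measured here are the chains of haemoglobin encoded in the 2 globin clusters of the mouse, the alpha-like genes Hba-x, Hba-a1 and Hba-a2 on chromosome 11 and the beta-like genes Hbb-y, Hbb-bh1, Hbb-bs and Hbb-bt on chromosome 7. Every probe that was not a control and whose accession matched 1 of these 7 genes was taken, whatever its signal. That gave 7 probes for 6 genes, 2 of them for Hbb-y and 1 for each of the others, while no probe matched Hbb-bs. In all, 26056 of the 55681 probes had a symbol, for 19752 named genes. The samples were mesonephric tubules of C57/BL6 mouse embryos, cut by microdissection from toluidine blue stained cryosections, with total RNA labelled with Cy3 on 1-colour Agilent arrays. The mesonephros is a transient kidney of the embryo. The study set embryos that lack p21 and were described as non-senescent (p21-/-, 3 arrays) against senescent wild-type embryos (5 arrays). p21, encoded by Cdkn1a, is an inhibitor of cyclin-dependent kinases. The labels give no stage, sex or age, no promoter or Cre, and leave open if RNA of several embryos was pooled and if arrays of a group stem from different embryos. The p-values below therefore reflect the spread between these arrays, which may be technical.

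Haemoglobin joins alpha-like and beta-like chains around haem. In the mouse, the first red cells come from the yolk sac (primitive erythroid cells) and make the embryonic chains Hba-x, Hbb-bh1 and Hbb-y together with adult alpha chains, and as they mature in the blood Hbb-bh1 gives way to Hbb-y. Red cells of the fetal liver (definitive erythroid cells) make the adult-type chains from Hba-a1, Hba-a2, Hbb-bs and Hbb-bt. Globin RNA is the most abundant RNA of maturing red cells.

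Signals are given as log2 of the processed intensity minus that of the 75th percentile on the same array, and a difference of 1 is a 2-fold change. Differences are labelled p21-null minus wild type, tested with limma over 50046 probes that were well above background on at least 3 arrays, with Benjamini-Hochberg adjustment and a threshold of 0.05. All 7 globin probes were well above background on all 8 arrays and so passed that filter. No probe on the array passed the adjusted threshold (0 of 50046, with 4889 at an unadjusted p under 0.05). Arrays correlated with each other between 0.849 and 0.945 and lay on 3 slides. Slide 1 held wild-type replicates 1 to 3 and labelled p21-null replicate 1, while slides 2 and 3 held 1 array of each group. The deleted gene did not separate the groups. The Cdkn1a probe with 10 spots per array read 2.11, 0.96 and 1.40 in labelled p21-null replicates 1 to 3, against 2.49, 2.52, 0.44, 1.85 and 1.11 in wild-type replicates 1 to 5 (difference −0.19, limma adjusted p = 0.953, with a sign that turned when 1 of several arrays was left out). A second Cdkn1a probe averaged −1.81 in labelled p21-null and −1.57 in wild type, with overlapping groups (difference −0.24, limma adjusted p = 0.892). The sources used here do not say where either probe lies relative to the deletion, so the group is called labelled p21-null.

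Before the values, the stretches upstream of 5 globin genes are printed. Likeness was measured only for Hba-a1 with Hba-a2 and for Hbb-bt with Hbb-bs. Each is the 120 bases that end just before the gene's start in RefSeq (build GRCm38.p6), written along the gene's own strand, and 6 of the 7 genes were matched in that table (all but Hbb-bh1). Capitals mark 3 short motifs on either strand, namely CACCC (the core of the box that Klf1 binds), the letters CCAAT of the box of that name, and TATAA (the core of the TATA box).
Hbb-y, chr7:103853208-103853327, minus strand: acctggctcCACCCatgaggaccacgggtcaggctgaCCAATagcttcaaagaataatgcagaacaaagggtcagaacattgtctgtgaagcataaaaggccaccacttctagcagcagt
Hba-x, chr11:32276480-32276599, plus strand: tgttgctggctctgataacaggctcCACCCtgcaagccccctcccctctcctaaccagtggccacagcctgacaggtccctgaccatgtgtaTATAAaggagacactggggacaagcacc
Hbb-bt, chr7:103813924-103814043, minus strand: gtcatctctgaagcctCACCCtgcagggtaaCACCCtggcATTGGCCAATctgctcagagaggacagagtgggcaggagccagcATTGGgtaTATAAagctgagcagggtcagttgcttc
Hba-a1, chr11:32283552-32283671, plus strand: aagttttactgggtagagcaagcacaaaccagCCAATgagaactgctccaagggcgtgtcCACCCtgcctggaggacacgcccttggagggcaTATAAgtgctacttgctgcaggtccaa
Hba-a2, chr11:32296372-32296491, plus strand: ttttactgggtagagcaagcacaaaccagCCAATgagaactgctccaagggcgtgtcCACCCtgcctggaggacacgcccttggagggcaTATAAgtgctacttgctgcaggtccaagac

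The letters CACCC lie in the window of each of the 6 genes, Hbb-bs included, against 31.7% of 32851 RefSeq promoter windows of the same length. Hbb-bt holds them 2 times, at −104 and −89 from the start. CCAAT lies in the windows of all but Hba-x (21.3% of all windows), and TATAA in those of all but Hbb-y (11.8%). The half-site GGTCA of nuclear receptors lies 3 times in the window of Hbb-y, at −94, −86 and −51, 1 time each in those of Hba-x and Hbb-bt, and in 18.9% of all windows. GATAA, the core of the site of GATA factors, lies in that of Hba-x alone (10.5% of all windows). These are matches of letters and not sites shown to be bound. Aligned with gaps, the Hba-a1 and Hba-a2 windows had 117 of 120 bases identical, and those of Hbb-bt and Hbb-bs 93 of 120. The unmatched bases of Hba-a1 and Hba-a2 lie at the window ends, since their windows are offset against each other. Because Hba-a1 and Hba-a2 are near-identical copies, and so are Hbb-bs and Hbb-bt, the signal of an adult-type probe may come from either copy and is uncertain as to the gene.

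The embryonic beta-like gene Hbb-bh1 stood higher in the labelled p21-null tubules, and the other embryonic and adult-type globins did not separate the groups. Hbb-bh1 was 5.23-fold higher without passing the adjusted test, Hba-x differed by 0.75 on the log2 scale, and the 2 Hbb-y probes by −0.0546 and 0.34. The 3 adult-type genes lay within 0.23 of no difference in either direction. Of the 7 probes 4 had a positive difference, against 48.2% of all probes. At an unadjusted limma p under 0.05 there was 1 globin probe, Hbb-bh1, against 9.77% of all probes. It was on the higher side, where 5.92% of all probes lay, and 0 globin probes were on the lower side, against 3.85%. With the stricter unadjusted limit of 0.01 and a fold of 2 or more, 1 globin probe was higher and 0 were lower, against 1.9% and 0.889% of all probes.

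Hbb-bh1 makes the beta-like chain of the youngest primitive red cells. Its log2 signal was 4.09, 3.32 and 3.55 in labelled p21-null replicates 1, 2 and 3, against 2.86, −0.010, 0.55, 0.46 and 2.46 in wild-type replicates 1 to 5. The lowest labelled p21-null array exceeded the highest wild-type array, as was so for 4.35% of all probes, and the 5 wild-type arrays fell into 2 high ones (replicates 1 and 5) and 3 low ones. Labelled p21-null arrays averaged 3.65 ± 0.40 (SD, n = 3) and wild-type arrays 1.27 ± 1.30 (SD, n = 5). The difference was 2.39 (standard error 0.69, 95% interval 0.82 to 3.96, limma unadjusted p = 0.00741, adjusted p = 0.334). Over all 56 splits of the arrays the two-sided exact permutation p was 0.0357, and the smallest that this design allows is 0.0179. Within slides 1, 2 and 3 the difference was 2.96, 2.86 and 1.08, and with slide as a fixed or a random block it was 2.39. Leaving out each array in turn gave 2.07 to 2.79, with a limma adjusted p between 0.222 (wild-type replicate 5 left out) and 0.95 (labelled p21-null replicate 3 left out), and over all alternatives between 0.179 and 0.95.

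Hba-x encodes the zeta chain, the embryonic partner on the alpha side. It read 3.32, 3.22 and 2.88 in the labelled p21-null replicates, against 3.55, 1.83, 1.79, 1.16 and 3.62 in the wild-type replicates. The labelled p21-null arrays lay close together, and wild-type replicates 1 and 5 stood above all of them while the other 3 wild-type arrays stood below. Labelled p21-null arrays averaged 3.14 ± 0.23 (SD, n = 3) and wild-type arrays 2.39 ± 1.12 (SD, n = 5), and the difference of 0.75 had a 95% interval of −0.62 to 2.12 (limma adjusted p = 0.768; exact permutation p = 0.375). Its sign was not the same on all slides, with 0.93, 2.06 and −0.74 within slides 1, 2 and 3.

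Hbb-y encodes the epsilon-y chain, which prevails in mature primitive red cells, and was read by 2 probes. Probe 1 read 5.66, 5.17 and 5.26 in the labelled p21-null replicates and 6.13, 4.77, 5.04, 4.34 and 6.80 in the wild-type replicates. Probe 2 read 5.39, 5.29 and 5.34 in the labelled p21-null replicates and 6.25, 4.56, 4.59, 4.34 and 5.25 in the wild-type replicates. The groups overlapped on both probes, wild-type replicate 1 being above all labelled p21-null arrays on each of them. Wild-type replicate 5 was the highest array on probe 1 but just below the labelled p21-null arrays on probe 2, the probes being 1.55 apart there against 0.0087 to 0.45 in size on the other arrays. For comparison, spots of the same probe, over 399 probes printed 10 times or more, had a median SD of 0.0790 to 0.136 within an array, and each globin probe had 1 spot. The limma difference was −0.0546 (95% interval −1.32 to 1.22, adjusted p = 0.989) on probe 1 and 0.34 (−0.68 to 1.37, adjusted p = 0.879) on probe 2. Within slide 3 the probes gave −1.54 and 0.0826. Neither sign is settled for probe 1, which turned to 0.29 without wild-type replicate 5 and to 0.00675 with median scaling.

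**Figure D1:**
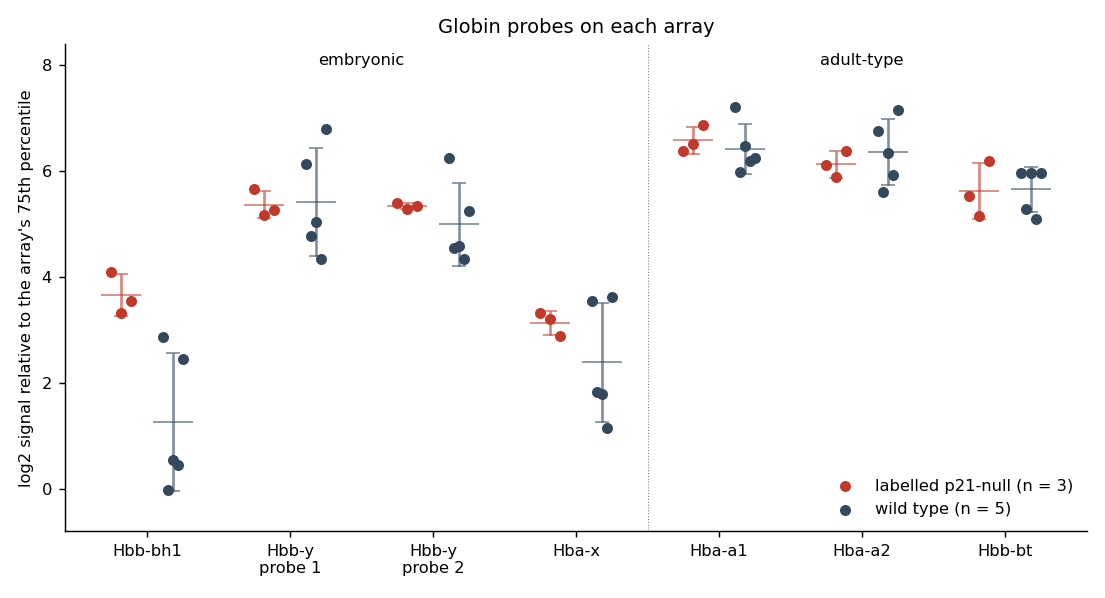
Log2 signal over the 75th percentile of its array (y axis) for the 7 globin probes (x axis), with 1 point per array, labelled p21-null left of wild type, and bars for the mean ± SD. Hbb-bh1 is the one probe on which the 3 labelled p21-null arrays, at 3.32 to 4.09, all lie above the 5 wild-type arrays, at −0.010 to 2.86.

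The adult-type globins were bright on all 8 arrays and differed little between them. The Hba-a1 probe, for an adult alpha chain, read 6.38, 6.51 and 6.87 in the labelled p21-null replicates and 7.21, 5.98, 6.48, 6.18 and 6.25 in the wild-type replicates. The Hba-a2 probe, for the other adult alpha gene, read 6.12, 5.88 and 6.38 in the labelled p21-null replicates and 6.75, 5.60, 6.35, 5.92 and 7.15 in the wild-type replicates. Both sets of groups overlapped, the highest array being wild-type replicate 1 on the Hba-a1 probe and wild-type replicate 5 on the Hba-a2 probe. Hbb-bt, which encodes an adult beta chain, read 5.53, 5.15 and 6.20 in the labelled p21-null replicates and 5.96, 5.29, 5.97, 5.10 and 5.97 in the wild-type replicates. Its highest array was labelled p21-null replicate 3 and its lowest wild-type replicate 4.

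The intervals put limits on the difference of the adult-type probes between these arrays, whose spread may be technical. The difference was 0.17 for Hba-a1 (95% interval −0.63 to 0.96), −0.23 for Hba-a2 (−1.13 to 0.68) and −0.0367 for Hbb-bt (−0.88 to 0.81), with limma adjusted p-values of 0.931, 0.914 and 0.988. A 2-fold difference in either direction was thus outside the interval for Hba-a1 and Hbb-bt, and on the higher side for Hba-a2. The sign of Hbb-bt turned with median scaling (0.0246) and on leaving out any of 5 single arrays. The probes of the near-identical genes Hba-a1 and Hba-a2 differed from each other by unequal amounts: Hba-a1 minus Hba-a2 was 0.26 to 0.63 in labelled p21-null arrays and 0.13 to 0.46 in wild-type replicates 1 to 4, but −0.90 in wild-type replicate 5.

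**Figure D2:**
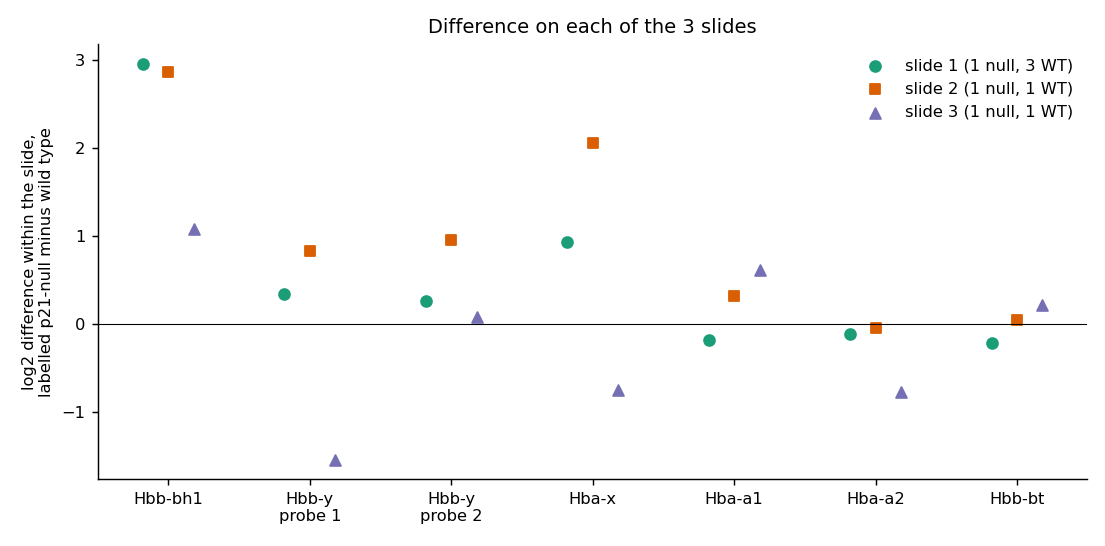
Log2 difference of labelled p21-null minus wild type within each slide (y axis) for the 7 globin probes (x axis), with slide 1 holding 3 wild-type arrays and slides 2 and 3 holding 1. Hbb-bh1 is above 1 on all 3 slides, and the triangles of slide 3 lie at −1.54 for Hbb-y probe 1 and −0.74 for Hba-x.

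Signal strength bears on how these values can be read. In processed intensity, the Hba-a1 probe ran from 185242 to 327514 on labelled p21-null arrays and from 158173 to 238322 on wild-type arrays. The Hbb-bh1 probe ran from 23915 to 38022 on labelled p21-null arrays and from 2600 to 15004 on wild-type arrays. No spot was saturated on any array, and the brightest globin spot reached 23.5% to 41.3% of the scanner's saturation value on labelled p21-null arrays and 18.8% to 47.6% on wild-type arrays. Whether bright probes bound target in proportion to its amount was not tested. The span between the lowest and the highest of the 8 arrays was 2.13-fold for Hbb-bt, 2.34-fold for Hba-a1 and 2.92-fold for Hba-a2, against a median span of 3.80-fold over all probes. It was 3.77-fold and 5.49-fold for the 2 Hbb-y probes, 5.53-fold for Hba-x and 17.2-fold for Hbb-bh1. The median covers probes of any brightness that passed the filter. Spans were not compared with those of probes as bright as the globins.

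The embryonic and the adult-type genes, averaged by class with 1 probe a gene, differed between the groups in unlike ways. The embryonic mean was 4.36, 3.91 and 3.90 in the labelled p21-null replicates and 4.18, 2.20, 2.46, 1.99 and 4.30 in the wild-type replicates. The adult-type mean was 6.01, 5.84 and 6.48 in the labelled p21-null replicates and 6.64, 5.62, 6.27, 5.74 and 6.46 in the wild-type replicates. The difference was 1.03 for the embryonic mean, of which Hbb-bh1 has the largest part, and −0.0327 for the adult-type mean, whose sign turned with median scaling (0.0286) and in the deposited log2 table (0.0057). These class means are descriptions with no test.

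Within an array, the embryonic minus the adult-type mean stood at −2.06 ± 0.48 (SD, n = 3) in labelled p21-null and −3.12 ± 0.76 (SD, n = 5) in wild type, a shift of 1.06. Only the shift can be read, since levels of different probes are not comparable. By slide it was 1.58, 1.81 and −0.43, so slide 3, with wild-type replicate 5, ran the other way. The embryonic mean takes Hbb-y from probe 1, which gave −1.54 within slide 3, against 0.0826 on probe 2. The sign on slide 3 was not tried with probe 2 and may rest on the choice of probe. Pairs of 1 embryonic and 1 adult-type gene from the same cluster were tested, with Hbb-bt standing in for Hbb-bs. Hbb-y minus Hbb-bt averaged −0.26 ± 0.59 in labelled p21-null and −0.24 ± 0.73 in wild type (exact permutation p = 0.946), and its sign turned with several alternatives. Hba-x minus Hba-a1 averaged −3.45 ± 0.48 in labelled p21-null and −4.03 ± 0.94 in wild type, a shift of 0.58 (exact permutation p = 0.339). Adjusted over these 2 pairs the p-values were 0.946 and 0.679. Hbb-bh1 minus Hbb-bt, which was not tested, read −1.43, −1.82 and −2.65 in labelled p21-null and −3.102, −5.30, −5.41, −4.64 and −3.51 in wild type. The groups did not overlap there, as they did not on Hbb-bh1 alone, which was so for 4.35% of all probes.

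Other genes of the globin family gave a similar split, with the theta globins on the side of Hbb-bh1. Hbq1a and Hbq1b lie in the alpha cluster beside Hba-a2 and Hba-a1. Hbq1b read 1.57, −0.012 and 1.47 in the labelled p21-null replicates and −0.996, −3.46, −2.10, −2.60 and −0.54 in the wild-type replicates. Hbq1a read 0.87, −0.13 and 0.74 in the labelled p21-null replicates and −1.42, −3.82, −2.28, −3.25 and −0.90 in the wild-type replicates. On both probes the labelled p21-null arrays lay above every wild-type array, as for 4.35% of all probes, and wild-type replicate 2 was lowest. The differences were 2.95 (standard error 0.70), or 7.72-fold, and 2.82 (0.67), or 7.09-fold, each with a limma adjusted p of 0.305 and an exact permutation p of 0.0357. Within slides 1, 2 and 3 Hbq1b differed by 3.75, 2.59 and 2.01, and Hbq1a by 3.38, 3.11 and 1.64.

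The remaining members of the family did not follow the theta globins. Hbb-bh2, a beta-like gene beside Hbb-bh1, differed by −0.26 on its brighter probe (limma adjusted p = 0.903), while its other probe was well above background on 1 array of each group and did not pass the filter. Cygb, cytoglobin of fibroblast-like cells, was at −2.08 ± 0.35 (SD, n = 3) in labelled p21-null and −0.41 ± 0.50 (SD, n = 5) in wild type, or 3.19-fold lower. Its labelled p21-null arrays lay below every wild-type array, as for 2.46% of all probes (limma adjusted p = 0.305; exact permutation p = 0.0179). Mb, the oxygen store of muscle, differed by −0.25 with a standard error of 1.72 and was above background on 3 of 5 wild-type arrays. Ngb, neuroglobin of nerve cells, differed by 0.23 (standard error 0.58) on its brighter probe. No probe matched the pseudogenes Hbb-bh0 and Hbb-bh3. A probe for Hbb-b2, the beta gene of another haplotype than that of C57BL/6, gave 4.86, 3.65 and 4.75 in labelled p21-null and 6.25, 5.36, 5.04 and 3.40 in wild-type replicates 1, 3, 4 and 5. Its spot on wild-type replicate 2 carried an outlier flag, so that array was dropped from its fit (difference −0.59, adjusted p = 0.851). Which gene it read in these embryos was not tested.

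**Figure D3:**
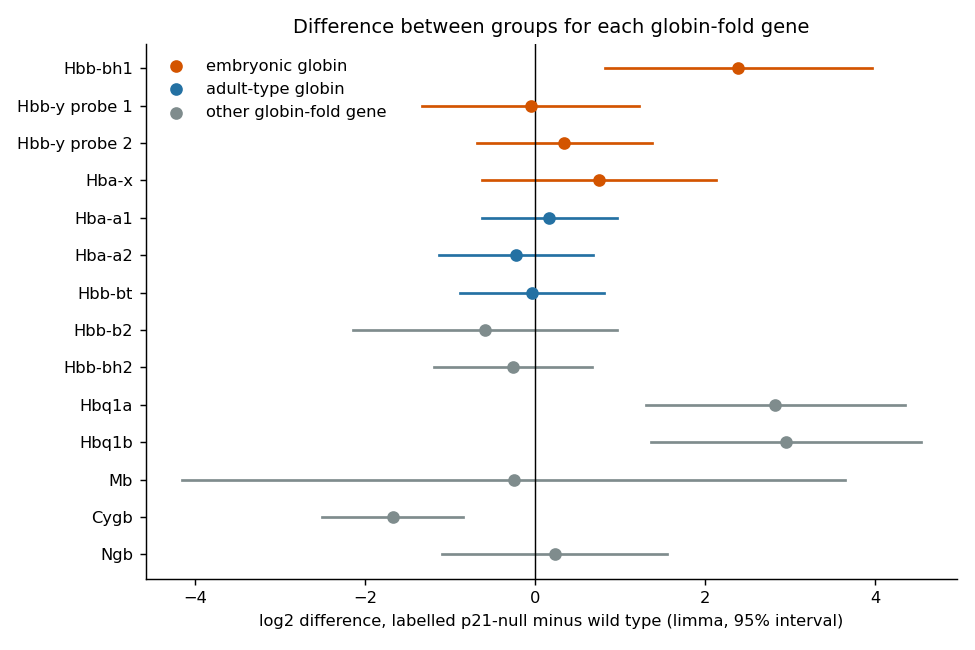
Log2 difference of labelled p21-null minus wild type with its limma 95% interval (x axis) for each globin-family probe that passed the filter (y axis). The intervals of Hbb-bh1 (0.82 to 3.96), Hbq1a and Hbq1b lie above 0 and that of Cygb lies below, before adjustment. Those of all other probes shown cross 0, among them Hba-x, both Hbb-y probes and the 3 adult-type genes.

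Genes that red cells need beside globin were higher in the labelled p21-null arrays as a body, unlike the adult-type globins. In tissue cut from sections, a higher number of cells of a type and more RNA per cell cannot be told apart. Of 15 genes of the red cell membrane and other erythroid genes, all 15 had a positive difference, with a median of 2.03, and 12 had an unadjusted p under 0.05. Of 13 measured genes of haemoglobin assembly and haem supply, all 13 were positive with a median of 1.45, and 10 had an unadjusted p under 0.05; no probe matched Ahsp. Over all probes the median difference was −0.0256 and 5.92% were higher at that p. At the adjusted threshold 0 of them passed, and the earlier results of these data that led to the choice of genes already showed erythroid genes higher.

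Among these genes, Epor, the receptor for erythropoietin, averaged 1.996 ± 0.74 in labelled p21-null (SD, n = 3) and −0.54 ± 0.91 in wild type (SD, n = 5), or 5.80-fold higher. Ank1, the ankyrin that anchors the red cell skeleton to the membrane, was 3.63-fold higher. Trim10, a ring finger gene of erythroid cells, was 4.87-fold higher. In the haem pathway Alad was 4.26-fold and Uros 3.26-fold higher. Tfrc, the transferrin receptor that brings in iron, was 3.67-fold higher, and Eif2ak1, the kinase that ties globin translation to haem, 2.74-fold. Their limma adjusted p-values ran from 0.305 to 0.321, and in each the 3 labelled p21-null arrays lay above all 5 wild-type arrays, but these genes were picked for their small p. Over the whole lists that was so for 9 of 15 red cell membrane and other erythroid genes and 6 of 13 of haemoglobin assembly and haem supply, against 4.35% of all probes.

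Regulators of the globin genes and of their switching were mostly higher in the labelled p21-null arrays, short of the adjusted threshold. Of 20 measured, 16 had a positive difference and 4 a negative one, the median was 1.06, and 10 were higher at an unadjusted p under 0.05 against 0 lower. Over all probes 48.2% were positive, 5.92% were higher at that p and 3.85% lower. Klf1, which acts on the adult beta promoter through its CACCC box, averaged 3.67 ± 0.30 in labelled p21-null (SD, n = 3) and 1.31 ± 1.26 in wild type (SD, n = 5), or 5.12-fold higher. Gata1, the central erythroid factor, was 4.93-fold, Nfe2, which binds the control region of the beta cluster, 5.14-fold, and Tal1, a partner of Gata1, 3.83-fold higher. Myb, a factor of blood progenitors, was 3.103-fold higher. These 5 were picked for their small p and had limma adjusted p-values of 0.307 to 0.337. Klf1 and Gata1 are also among the erythroid markers used below. Bcl11a differed by 0.56 and Sox6 by 0.75 (limma adjusted p = 0.866 and 0.706). The 4 with a negative difference were Nr2f2 (−1.04), Hmga2 (−0.25), Nr2c2 (−0.046) and Nr2c1 (−0.0045).

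**Figure D4:**
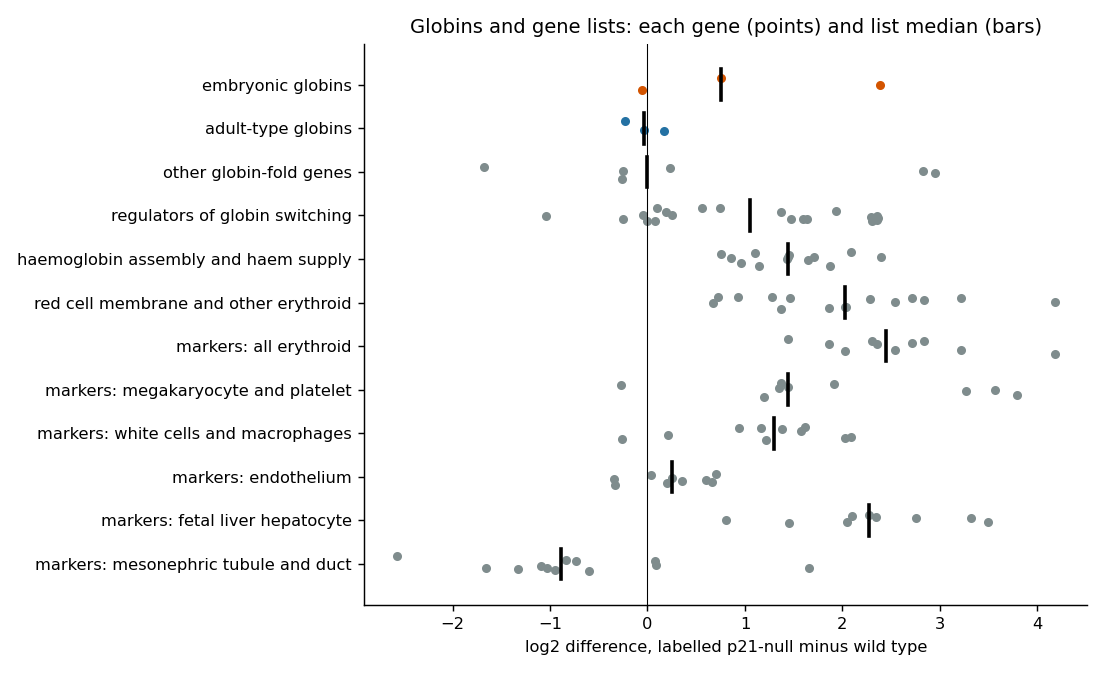
Log2 difference of labelled p21-null minus wild type (x axis) for each measured gene of each list (y axis), with 1 point per gene and a bar at the list median. The 3 adult-type globins lie between −0.23 and 0.17, whereas the erythroid lists have medians of 1.45 to 2.45.

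Set against the other erythroid genes, the adult-type globins, Hbb-y and Hba-x had larger shifts between the groups than Hbb-bh1 and the theta globins. This is a description with no test. The mean of 10 erythroid markers (among them Alas2, Slc4a1, Klf1, Gata1, Epor, Epb42, Rhag and Ank1) was 3.52, 2.48 and 3.56 in the labelled p21-null replicates and 0.91, −0.85, 0.94, 0.11 and 2.09 in the wild-type replicates, a difference of 2.55. The adult-type globin mean minus this marker mean was 2.49, 3.36 and 2.93 in labelled p21-null and 5.73, 6.47, 5.33, 5.63 and 4.37 in wild type. The groups did not overlap, as they did not on the marker mean alone, and the shift of −2.58 was −3.36, −2.26 and −1.44 within slides 1, 2 and 3. Since the adult-type mean itself differed by −0.0327, this shift is nearly that of the markers with its sign reversed. The markers were chosen with earlier results known, so the lack of overlap is no separate evidence on the globins. The embryonic mean minus the marker mean averaged 0.87 ± 0.54 in labelled p21-null and 2.39 ± 0.75 in wild type, a shift of −1.52, which was −1.78, −0.45 and −1.87 within slides 1, 2 and 3.

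By gene the shift relative to the marker mean was −2.60 for Hbb-y (probe 1), −1.80 for Hba-x, −2.58 for Hbb-bt, −2.38 for Hba-a1 and −2.77 for Hba-a2. The Hba-x shift was −2.26, −0.31 and −2.21 within slides 1, 2 and 3. For Hbb-bh1 it was −0.16, smaller than the SD within either group (0.44 in labelled p21-null and 0.86 in wild type), with a sign that turned within slide 2 (0.49), in the deposited table (0.0165) and on leaving out wild-type replicate 1 (0.17) or labelled p21-null replicate 3 (0.0809). For Hbq1a it was 0.28 and for Hbq1b 0.40. These shifts are descriptions, each the gene's own difference less that of the markers, and the difference between the genes was not tested.

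**Figure D5:**
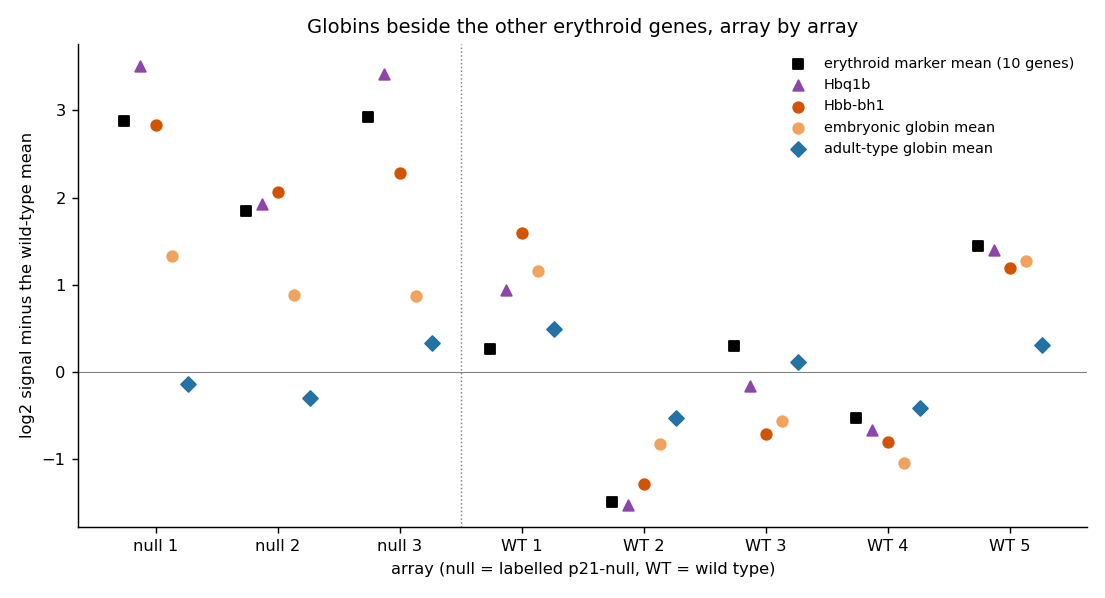
Log2 signal minus the wild-type mean (y axis) on each of the 8 arrays (x axis, labelled p21-null at the left) for the mean of 10 erythroid markers, Hbq1b, Hbb-bh1 and the embryonic and adult-type globin means. The erythroid markers, Hbb-bh1 and Hbq1b are high on all 3 labelled p21-null arrays, while the adult-type mean lies on both sides of 0 in either group.

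Markers of other cells were also compared between the groups, and their part in the globin results was not tested. Over all probes 48.2% had a positive difference, and at an unadjusted limma p under 0.05 5.92% were higher and 3.85% lower. At that p, 8 hepatocyte, 4 megakaryocyte and platelet, 7 white cell and macrophage and 0 endothelial markers were higher, and 1 tubule and duct marker was lower. At the adjusted threshold 0 of them passed. Of 9 fetal liver hepatocyte markers, all 9 had a positive difference, the summed signal being 114 to 260 times the 75th percentile in labelled p21-null arrays and 12.9 to 151 times in wild-type arrays. Of 9 megakaryocyte and platelet markers 8 were positive (summed signal 7.95 to 65.5 in labelled p21-null and 2.84 to 17.2 in wild type), and of 10 measured white cell and macrophage markers 9 (30.05 to 49.9 in labelled p21-null and 19.5 to 32.3 in wild type). Of 9 endothelial markers 7 were positive with a median difference of 0.26 (11.2 to 20.8 in labelled p21-null and 9.95 to 22.01 in wild type). The tubule and duct markers were all measured, and 9 of 12 had a negative difference (7.49 to 11.3 in labelled p21-null and 9.48 to 25.2 in wild type). Of these 12, 10 were well above background on all 8 arrays. Ret and Emx2 are named as those that were not, after their values were seen (limma unadjusted p = 0.0591 and 0.224). Cdh1 (1.65), Lhx1 (0.0855) and Epcam (0.0809) were the markers with a positive difference. Wt1 was the one lower at a limma unadjusted p under 0.05. Emx2 was above background on 2 of 3 labelled p21-null and 5 of 5 wild-type arrays, and Ret was not well above background on any labelled p21-null array, being above it on 4 of 5 wild-type arrays.

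The genes whose pattern over the 8 arrays was most like that of the globins were found by the root mean square distance between centred log2 profiles, among 18034 named genes. The embryonic mean lay closest to Capn1, a calpain protease (distance 0.35), Serpina11 (0.37), Gpr160 (0.38), the histone gene H3c8 (0.39) and Lpcat3 (0.40), followed by Ifitm3, 1700028J19Rik, Esco2, Reep6 and Arhgdib up to 0.42. The median distance of all genes was 1.09. The adult-type mean, which varied little, lay closest to Tex52 (0.096), Fbxo6 (0.14), Olfr71 (0.15), Rpl37 (0.16) and Ces5a (0.16), against a median of 0.68. Neither set of 10 held an erythroid gene of the lists above. However, this distance rises with the size of a change as well as with its shape. The erythroid marker mean spanned 4.40 on the log2 scale over the arrays, more than either class mean. The absence of erythroid genes is therefore no evidence on whether their shape was shared. Without 1 array, 2 to 5 of the 10 were kept for either class. Of the embryonic 10, 6 were kept with quantile scaling, 4 with normexp and 5 with the deposited log2 values, and of the adult-type 10, 1, 1 and 0. With median scaling, or with outlier spots kept, all 10 were kept for both.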

How the data were processed

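Total RNA of mesonephric tubules was measured on 8 1-colour arrays. The deposited scanner files hold spot intensities on a linear scale, made with Agilent Feature Extraction 10.7.3.1 per the file headers, with a processed intensity corrected for background. The deposited series table holds log2 values, for which the submitters' processing notes name limma, and other steps are not stated there. The columns of that table had medians of 9.256 to 9.257 and correlated at 0.974 to 0.982 with the log2 processed intensity of the same array, so they rise with signal and are not centred on genes, while the exact scaling stays unknown.

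Accessions were matched to RefSeq symbols (GRCm38.p6). Each log2 processed intensity was set against its array's 75th percentile, after removal of spots with an outlier flag and averaging of repeated spots. Probes above background on at least 3 arrays were fitted with limma 3.58.1 in R 4.3.3 (5 wild-type, 3 labelled p21-null arrays, no covariate), a step tested on simulated data. For a gene with several probes the one of highest mean was taken. Precision is limited by how many arrays there are.

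The members, lists and tests were chosen with earlier results of these data known. Named were all globin-family genes, the 5 genes of smallest p in each further list (some of these are not reported here), and the 10 genes nearest each class mean. Alternatives covered scaling, normexp correction (offset 50) on median intensities, filters, flagged spots, slide and replicate blocks, probe rules, moderation, the deposited table and leaving out each array. Replicate numbers did not pair the arrays: deviations of same-numbered arrays correlated at 0.0718, −0.0729 and −0.0751. The best-matching wild-type arrays of labelled p21-null replicates 1, 2 and 3 were replicates 3, 4 and 5, each on the same slide. The main fit had no slide term.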

Additional observations from a re-analysis of the deposited data

Results flagged for a closer look

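Among 46 values set against Dixon's criterion in the 5 wild-type arrays (0.71), 1 stood out, where chance alone gives about 1 in 20. Cygb read 0.45 in wild-type replicate 4, and the nearest of the other wild-type arrays read −0.47, a gap of 0.749 of the group's range. The group difference of Cygb does not rest on that array in direction, since the other wild-type arrays also lay above all arrays labelled p21-null.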

How the results depend on the processing

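Under the alternatives, no globin probe passed the adjusted threshold, and Hbb-bh1 kept a positive difference in each of them. The replicate block gave 2.52 for Hbb-bh1 and changed no call, with 1279 probes past the unadjusted 0.01 limit and a fold of 2, against 1395 without it. Wild-type replicates 4 and 5 carry no information there, and it turned the sign of Hbb-y probe 1 (0.0478) and of Hbb-y minus Hbb-bt (0.17). That looser count was 456 without labelled p21-null replicate 3, 628 without labelled p21-null replicate 1 and 456 to 1771 over all arrays left out. Probes past the adjusted threshold numbered 3 with normexp, 1 without wild-type replicate 4, and 0 to 1 over all arrays left out. Globin genes with a positive difference numbered 3 of 6, but 5 with median scaling, 5 within slide 2, and 3 to 5 when single arrays were left out. The cause of these changes was not tested.

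Within slide 3 the embryonic mean differed by −0.40, embryonic minus adult-type by −0.43 and Hba-x minus Hba-a1 by −1.36. The embryonic mean there takes Hbb-y from probe 1 (−1.54 within slide 3, against 0.0826 on probe 2). Within slide 2 embryonic minus adult-type was 1.81. Without single arrays the embryonic mean ran from 0.77 to 1.35 and the adult-type mean from −0.22 to 0.10. Hbb-y minus Hbb-bt was positive with quantile scaling (0.0242), with all probes of a gene averaged (0.18) and within slides 1 (0.55) and 2 (0.79), and ran from −0.21 to 0.32 without single arrays.

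Single probes changed sign as follows. Hbb-y probe 1 gave 0.00675 with median scaling, −0.32 to 0.29 without single arrays (above 0 without wild-type replicates 1 or 5, or the second array labelled p21-null), and 0.34 and 0.83 within slides 1 and 2. Hbb-bt gave 0.0246 with median scaling, −0.32 to 0.20 without single arrays (above 0 in 5 of 8), and 0.0429 and 0.22 within slides 2 and 3. Hba-a1 gave −0.18 within slide 1 and Hba-x −0.74 within slide 3. Hbb-b2 gave 1.35 within slide 3, Hbb-bh2 0.89 and 0.21 within slides 2 and 3. Mb gave −1.28 to 0.73 without single arrays, and 2.30 within slide 2. Ngb gave −0.12 with slide as a block, −0.17 to 0.90 without single arrays, and −0.73 and −0.0062 within slides 1 and 2. Cdkn1a gave −0.50 to 0.0758 without single arrays, 0.30 and 0.29 within slides 1 and 3, and 0.60 within slide 3 on its second probe.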
